A study of Mus musculus with 9 samples.

Results

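Histones are the proteins around which nuclear DNA is wound, and their genes were followed here in a mouse tumour line and in clones grown from it. Of the 15768 gene symbols measured, 72 were taken as histone genes because the symbol followed the current histone nomenclature. By name alone they fell into 8 linker histones (H1f), 57 core replication-dependent histones (H2ac, H2bc, H3c and H4 names) and 7 variant histones (H2ax, H2az and H3f names). SCC2 and SCC1 are subclones that were each founded from 1 cell of LLC1 by limiting dilution and then kept for 5 to 8 passages, so each stands for 1 clone. LLC1 is the parental line, from a mouse Lewis lung carcinoma. All 3 lines were labelled as untreated tumour cells of genotype WT, grown in DMEM with fetal bovine serum, and each had 3 libraries. Whether the 3 libraries of each line go back to different cultures is not on any label, and the spread behind every p-value may therefore be technical.

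A nucleosome holds the core histones H2A, H2B, H3 and H4, and a linker histone binds the DNA where it enters and leaves. Core genes and several linker genes lie in clusters, are transcribed mainly in S phase, and give mRNAs that usually end in a short stem-loop bound by the protein SLBP instead of a poly(A) tail. Variant histones such as H2A.Z, H2A.X and H3.3 and the linker histones H1.0 and H1.10 can be made outside S phase from ordinary polyadenylated mRNAs. The label protocols name a SMARTER kit for mRNA and the study's design text a TruSeq Stranded mRNA kit. Kits of both kinds take up RNA by its poly(A) tail, so how far the FPKM of a stem-loop histone gene follows its mRNA without a tail cannot be told from these libraries.

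The stem-loop sites of 8 members are shown because they mark the mRNAs that lack a tail when cut at this place. They come from GENCODE M21 transcripts of build GRCm38, 5′ to 3′ on the gene's strand as DNA letters, with the stem, loop and stem in capitals.
H1f2, chr13:23739507-23739532 (+): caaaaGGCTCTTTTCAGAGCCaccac
H2ax, chr9:44335235-44335260 (+): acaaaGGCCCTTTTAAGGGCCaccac
H2ac8, chr13:23570663-23570688 (-): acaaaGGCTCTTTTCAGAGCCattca
H2bc8, chr13:23571838-23571863 (+): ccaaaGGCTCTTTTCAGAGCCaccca
H3c3, chr13:23745042-23745067 (-): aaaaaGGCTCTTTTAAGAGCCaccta
H3c8, chr13:23535884-23535909 (+): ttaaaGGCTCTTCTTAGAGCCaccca
H4c9, chr13:22040961-22040986 (-): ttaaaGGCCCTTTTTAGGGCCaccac
H4c11, chr13:21735432-21735457 (+): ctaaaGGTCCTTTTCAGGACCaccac
A histone 3′ stem-loop of this kind was found in transcripts of 67 of 21901 coding genes (0.306%), and 45 of these genes were members. Among the 56 core members with a GENCODE transcript, 40 held it. None was found in the transcript models of H1f0, H1f10, H2az1, H2az2, H3f3a and H3f3b, or in those of the core genes H2bc4, H2bc21 and H4c12. A model without the site may simply stop before it: that of H4c12 has 312 bases. Gene lengths worked back from the FPKM values matched the RefSeq span of 63 of 71 members within 0.2%, and the other 8 were shorter than their span. For 37 of the 40 core members with a stem-loop the RefSeq gene ended within 10 bases past it, so fragments of longer transcripts that lie past the loop would fall outside the gene.

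The deposited values were FPKM, that is fragments divided by the length of the gene and by the sequenced total, with 17094808 to 19398657 fragments per library. The labelled tissue was lung, and the markers of lung epithelium in the table (Sftpc, Nkx2-1 and Foxj1, 3 of 5 listed) summed to at most 0.108 FPKM in any library, while the mesenchymal markers Vim and Fn1 summed to 3800 to 3870. The leukocyte marker in the table (Cd79a, 1 of 4 listed) reached at most 0.274 FPKM and 3 endothelial markers together 0.0295, and no erythroid marker of 2 listed was in the table. The epithelial keratins Krt8 and Krt18 made up nearly all of 231 to 232 FPKM in SCC2, 445 to 455 in SCC1 and 332 to 341 in LLC1, with Cdh1 at or near 0, and their part in the histone results was not tested. In bulk RNA, fewer cells making a transcript and less of it per cell cannot be told apart.

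Variant histones supplied most of the histone RNA that was measured. Their summed FPKM was 77.5% of that of all members in SCC2, 74.6% in SCC1 and 72.8% in LLC1. Linker histones made up 15.8%, 19.4% and 21.8% in SCC2, SCC1 and LLC1. The 57 core genes together made up 6.71%, 5.96% and 5.38% in the same lines, with 57 of the 72 genes. The median core gene averaged 0.378 FPKM over the 9 libraries, against 0.708 for linker genes and 146 for variant genes. All members together were 0.391% of the FPKM of SCC2, 0.35% of SCC1 and 0.388% of LLC1.

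**Figure D1:**
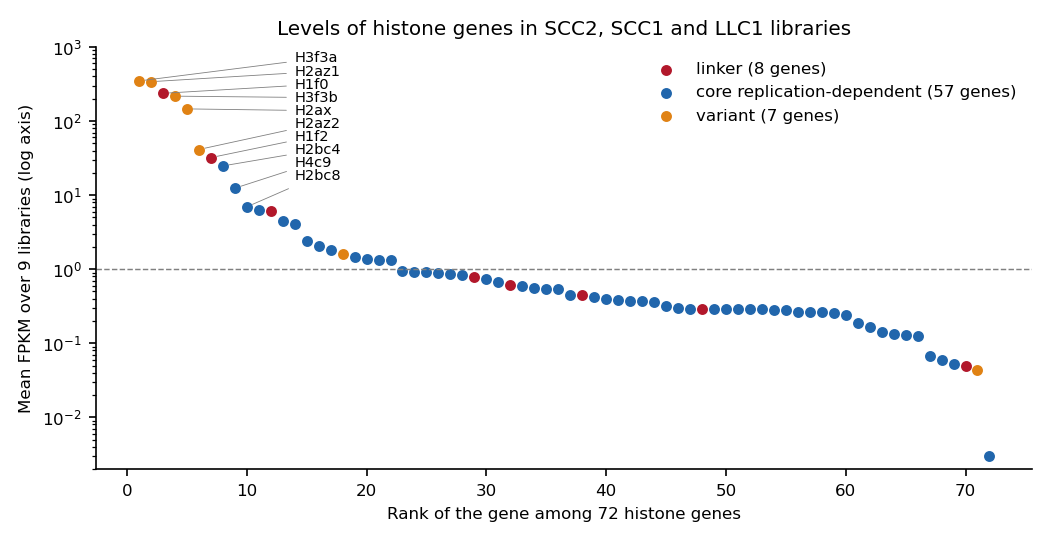
Mean FPKM over 9 libraries of each of 72 histone genes on a log axis, ranked from high to low, with the class as colour and the 10 highest named; the dashed line is 1 FPKM. Variant genes and H1f0 fill the top of the ranking up to 348 FPKM, and most core genes lie under 1 FPKM.

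The sums by class moved differently in the clones. Linker histones summed to 236, 234 and 239 FPKM in the SCC2 libraries, 270, 266 and 263 in SCC1, and 328, 329 and 328 in LLC1, so the lines did not overlap. Their ratio was 0.72 for SCC2 over LLC1, 0.811 for SCC1 over LLC1 and 0.888 for SCC2 over SCC1. H1f0 made up 85.4% of the linker sum. Without it the same ratios were 1.37, 0.617 and 2.23, and the order of the lines was another.

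Core genes summed to 98.4, 104 and 100 FPKM in SCC2, 78.0, 83.6 and 83.2 in SCC1, and 84.8, 76.7 and 81.7 in LLC1. SCC2 lay above both other lines (ratios of 1.24 to LLC1 and 1.23 to SCC1), while SCC1 and LLC1 overlapped (1.01). H2bc4 made up 28.3% of the core sum. Without it the ratios were 1.22 for SCC1 over LLC1 and 0.98 for SCC2 over SCC1. Variant genes summed to 1164 ± 9.79 FPKM in SCC2, 1022 ± 9.36 in SCC1 and 1097 ± 8.92 in LLC1 (SD, n = 3 each), a span of 1.14 times between the clones. No p is given for these sums, because the members were chosen with results of these data known.

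**Figure D2:**
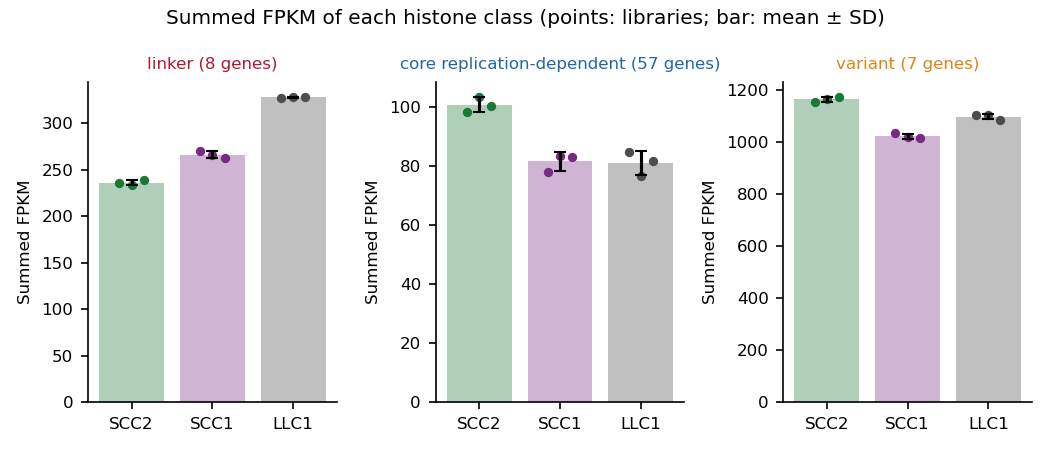
Summed FPKM of linker, core and variant histones in SCC2, SCC1 and LLC1; bars are the mean with SD, points are the 3 libraries of a line. Linker sums were lowest in SCC2 and highest in LLC1, and the core sum was highest in SCC2.

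Tests were run on log2(FPKM + 1) for the 10519 genes of the table with at least 1 FPKM in at least 3 of the 9 libraries, and log2 changes of low genes are understated on this scale. Of the 72 members 26 passed: 3 linker genes, 17 core genes and 6 variant genes. No member passed through the libraries of a single line, but 7 passed with no library of 1 line at 1 FPKM. Those were H2ac13 and H2ac7 without LLC1, H1f10, H2bc6 and H3c14 without SCC1, and H3c3 and H3c6 without SCC2. The 46 that did not pass averaged up to 0.893 FPKM and had 1 to 125 fragments over all 9 libraries, with a median of 24. Closest to passing by their mean were H2ac6, with means of 1.12 FPKM in SCC2, 0.876 in SCC1 and 0.685 in LLC1, and H3c7, with 0.822, 1.04 and 0.632. H2ac7, with 0.95, 1.06 and 0.59, was just inside. At the other end H2bc24 had 1 fragment in all. Among core genes, 3 fragments correspond to between 0.0613 FPKM (H2bc21) and 0.436 FPKM (H4c3), with 0.332 in H3c8 and 0.211 in H2bc4.

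In SCC1 against LLC1, 10 of the 26 members were higher and 9 lower at an adjusted p under 0.05, where 70.1% of all tested genes were called, 39.2% higher and 30.9% lower. All 3 linker genes were lower. Core genes split into 8 higher, 4 lower and 5 not called, with a median log2 change of 0.29 against 0.0333 over all tested genes, and variant genes into 2 higher, 2 lower and 2 not called. In SCC2 against LLC1, 13 were higher and 4 lower, where 67.6% of all genes were called, 34.7% higher and 32.9% lower. The linker genes were then 2 higher and 1 lower, the core genes 9 higher and 2 lower with a median of 0.28 against 0.00754 over all genes, and the variants 2 higher and 1 lower. In SCC2 against SCC1, 11 were higher and 6 lower, where 76.3% of all genes were called, 37% higher and 39.4% lower. Libraries without overlap put 7 members higher and 9 lower in SCC1 against LLC1 (72.3% of all genes had none), 10 higher and 4 lower in SCC2 against LLC1 (70.7%), and 10 higher and 5 lower in SCC2 against SCC1 (77.9%). Of the members, 73.1% were called in SCC1 against LLC1 and 65.4% in SCC2 against LLC1, near the shares over all genes, and 65.4% in SCC2 against SCC1, below it. These counts hold the members that passed without a library of 1 of the lines compared, whose direction was then not independent of the filter. Without those members, there were 8 higher and 7 lower of 21 in SCC1 against LLC1, 12 and 3 of 22 in SCC2 against LLC1, and 9 and 5 of 21 in SCC2 against SCC1. Both clones were set against the same LLC1 libraries, so those comparisons are not independent of each other.

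**Figure D3:**
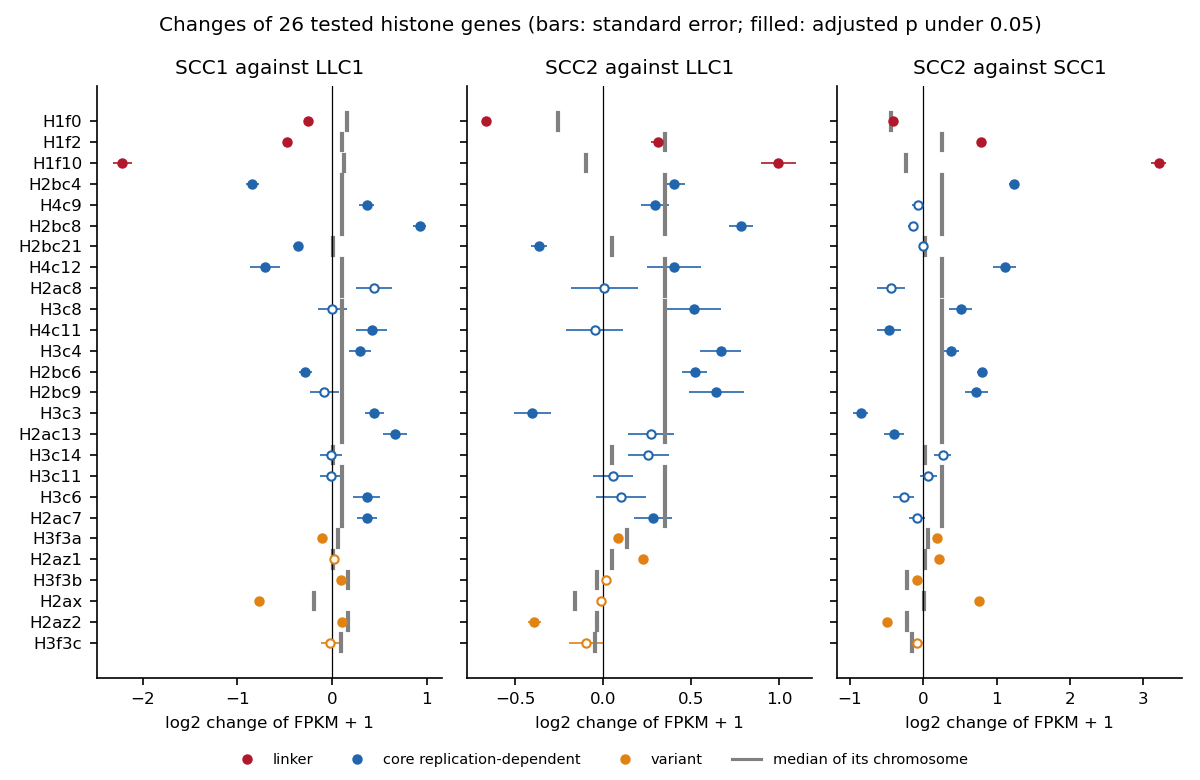
Log2 change of FPKM + 1 with its standard error for the 26 tested histone genes in SCC1 against LLC1, SCC2 against LLC1 and SCC2 against SCC1, coloured by class, filled where the adjusted p was under 0.05; grey ticks give the median of all tested genes on the same chromosome. H1f10 had the largest change of any member in each panel.

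Among linker histones, H1f10, which encodes the H1.10 (H1X) subtype, differed most. Its single exon lies at chr6:87980421-87981482 (GRCm38.p6, RefSeq). It had 10.8, 12.7 and 13.2 FPKM in SCC2, 0.630, 0.304 and 0.361 in SCC1, and 6.35, 4.87 and 5.72 in LLC1. All SCC1 libraries lay far below LLC1, at 13, 6 and 7 fragments, and all SCC2 libraries lay above it. The gene passed the filter with no SCC1 library at 1 FPKM, so its direction in SCC1 is not independent of the filter. The log2 change was -2.22 in SCC1 against LLC1 (SE 0.101, limma adjusted p = 4.25e-09), a ratio of mean FPKM of 0.0765. It was 1.0 in SCC2 against LLC1 (adjusted p = 4.12e-06, ratio 2.17) and 3.21 in SCC2 against SCC1 (adjusted p = 9.71e-11, ratio 28.4).

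The genes on either side of H1f10 did not change by that much. Hmces, whose start lies 66.5 kb before that of H1f10, had log2 changes of -0.0975 in SCC1 against LLC1 and 0.0973 in SCC2 against LLC1. Rab7, whose start lies 18.7 kb after that of H1f10, had 0.28 in SCC1 against LLC1 and 0.0274 in SCC2 against LLC1, the second not called. H1f10 shared no 150-base stretch with the transcript of another gene.

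H1f0 encodes H1.0, the linker histone that accumulates in cells that stop dividing or differentiate. It was the most abundant linker gene, with 181, 178 and 183 FPKM in SCC2, 244, 241 and 239 in SCC1, and 288, 290 and 286 in LLC1. The 3 lines did not overlap, with SCC2 lowest and LLC1 highest. The log2 change was -0.25 in SCC1 against LLC1 (SE 0.0162, limma adjusted p = 7.51e-08), -0.67 in SCC2 against LLC1 (adjusted p = 4.93e-11) and -0.42 in SCC2 against SCC1 (adjusted p = 6.1e-10). Its chromosome 15 had medians over all tested genes of 0.16, -0.26 and -0.44 in these comparisons. With the median of each chromosome taken off, the difference between SCC2 and SCC1 was 0.00617 and no longer called, while both clones stayed below LLC1 by about the same size (-0.42 in SCC1 and -0.41 in SCC2). Gcat, whose start lies 2.66 kb after that of H1f0, had 0.27 in SCC1 against LLC1 and -0.41 in SCC2 against LLC1.

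H1f2, which encodes the replication-dependent subtype H1.2, was the linker gene with the stem-loop printed above. It had 40.9, 40.2 and 40.6 FPKM in SCC2, 24.5, 22.5 and 22.4 in SCC1, and 31.0, 32.5 and 34.0 in LLC1. The lines did not overlap, with SCC2 above and SCC1 below LLC1. The log2 changes were -0.47 in SCC1 against LLC1 (SE 0.0386, limma adjusted p = 5.78e-07), 0.31 in SCC2 against LLC1 (adjusted p = 2.22e-05) and 0.78 in SCC2 against SCC1 (adjusted p = 4.27e-09). The rise in SCC2 was close to the median of chromosome 13 (0.35), and with that median taken off it was -0.0433 and not called. The other replication-dependent linker genes H1f1, H1f3, H1f4 and H1f5 averaged 0.294 to 0.796 FPKM and were not tested, as was the testis gene H1f6 (0.0494). H1f3 averaged 1.24 FPKM in SCC2, 0.526 in SCC1 and 0.624 in LLC1, and H1f5 0.934, 0.264 and 0.661.

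**Figure D4:**
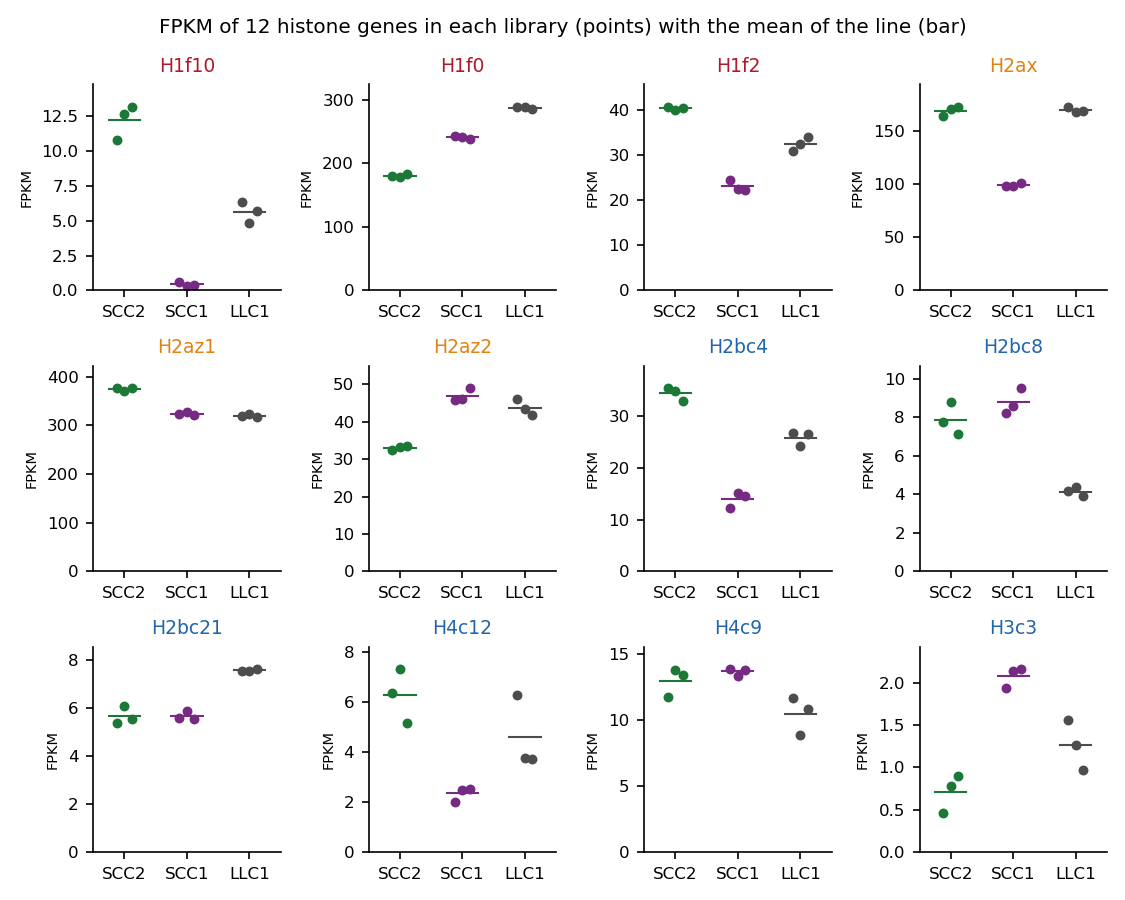
FPKM of 12 histone genes in every library of SCC2, SCC1 and LLC1 (points), with the mean of the line as a bar and axes from 0. H1f10, H2bc4 and H1f2 were high in SCC2 and low in SCC1, H2ax was low in SCC1, and H2bc8 was high in both clones.

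Among the variants, H2ax encodes H2A.X, the histone phosphorylated at DNA breaks, and its gene gives both a stem-loop and a polyadenylated mRNA. The stem-loop shown above lies 822 bases before the end of its transcript model. It had 164, 171 and 173 FPKM in SCC2, 98.6, 97.8 and 101 in SCC1, and 173, 168 and 169 in LLC1. SCC1 lay below the other lines, which overlapped. The log2 change was -0.77 in SCC1 against LLC1 (SE 0.0218, limma adjusted p = 8.37e-11), a ratio of 0.582, and 0.77 in SCC2 against SCC1 (adjusted p = 4.27e-11). In SCC2 against LLC1 it was -0.00932 and not called (adjusted p = 0.718), although with the chromosome 9 median of -0.16 taken off it was 0.15 and called.

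The H2A.Z genes went separate ways. H2az1, which encodes H2A.Z.1, a variant placed at promoters, had 378, 371 and 378 FPKM in SCC2, 323, 328 and 321 in SCC1, and 320, 325 and 316 in LLC1. SCC2 was higher than LLC1 by a log2 change of 0.23 (limma adjusted p = 2.11e-07), and SCC1 was not called (0.0176, adjusted p = 0.351). H2az2, its paralogue for H2A.Z.2, had 32.5, 33.3 and 33.5 FPKM in SCC2, 45.7, 46.1 and 49.1 in SCC1, and 46.2, 43.3 and 41.8 in LLC1. SCC2 lay below both other lines, by -0.39 from LLC1 (adjusted p = 2.59e-06) and -0.49 from SCC1 (adjusted p = 1.83e-07). SCC1 overlapped LLC1, at 0.10 (adjusted p = 0.0293), and that call was lost without LLC1 replicate 2 or 3 or SCC1 replicate 3 (adjusted p = 0.0755 to 0.126). It was reversed in sign, at -0.0653 and not called, with chromosome medians taken off.

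H3.3, the replication-independent form of H3, is encoded by H3f3a and H3f3b. H3f3a had 365, 374 and 375 FPKM in SCC2, 332, 320 and 321 in SCC1, and 347, 356 and 346 in LLC1. It was lower in SCC1 than in LLC1 by a log2 change of -0.11 (limma adjusted p = 0.000434) and higher in SCC2 by 0.0854 (adjusted p = 0.00241). The rise in SCC2 became -0.0522 with the median of chromosome 1 taken off. H3f3b had 213, 214 and 213 FPKM in SCC2, 231, 225 and 222 in SCC1, and 215, 208 and 211 in LLC1. It was 0.0983 higher in SCC1 than in LLC1 (adjusted p = 0.000628), but -0.0686 with chromosome medians taken off, and it was not called in SCC2 against LLC1 (0.0145), although with chromosome medians taken off it was (0.0503, adjusted p = 0.0389). All called changes of the H3.3 genes were thus under 0.2 on the log2 scale.

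The levels of H3f3a and H2az1 could not be told apart in the clones, at 371 ± 5.66 and 375 ± 3.91 FPKM in SCC2 and 324 ± 6.88 and 324 ± 3.32 in SCC1. In LLC1 H3f3a was the higher, at 350 ± 5.39 against 320 ± 4.13 (SD, n = 3 each). Windows shared with other genes limit this order: 25.9% of the H2az1 transcript, with the predicted gene Gm8203, and 4.4% of the H3f3a transcript. The length used limits it as well. The length worked back for H3f3a was 1087 bases, while its longest GENCODE transcript has 2841. H3f3c, a further H3 gene on chromosome 2, had 1.119 to 1.756 FPKM in SCC2, 1.56 to 1.69 in SCC1 and 1.38 to 1.92 in LLC1, and was called in no comparison. H3f4 had 4 fragments over all libraries and was not tested.

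Of the core genes, H2B genes gave the largest sum, 56.1 ± 1.79 FPKM in SCC2, 34.4 ± 1.13 in SCC1 and 43.0 ± 1.05 in LLC1 (SD, n = 3 each, 16 genes), with no overlap between lines. H2A genes summed to 9.11 ± 0.791, 11.9 ± 2.03 and 8.47 ± 1.70 FPKM in SCC2, SCC1 and LLC1 (16 genes). H3 genes summed to 11.9 ± 0.824, 11.8 ± 0.612 and 9.73 ± 1.35 FPKM (12 genes), and H4 genes to 23.6 ± 1.92, 23.6 ± 1.31 and 19.9 ± 2.27 (13 genes), in the same order of lines. A nucleosome takes up the proteins of all these families in equal numbers. The H2B sum rested on H2bc4, with 55.8% of it.

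H2bc4 had 35.6, 35.0 and 33.0 FPKM in SCC2, 12.3, 15.2 and 14.6 in SCC1, and 26.8, 24.2 and 26.6 in LLC1. The lines did not overlap, with SCC2 above and SCC1 below LLC1. The log2 changes were -0.84 in SCC1 against LLC1 (SE 0.0648, limma adjusted p = 3.59e-07), 0.40 in SCC2 against LLC1 (adjusted p = 0.000173) and 1.24 in SCC2 against SCC1 (adjusted p = 6.88e-09). With the median of chromosome 13 taken off, the value in SCC2 against LLC1 was 0.0489 and not called. Its GENCODE model has 2 exons, and its RefSeq gene spans chr13:23684199-23692480. Of the 150-base windows of its GENCODE transcript, 17.4% were identical to windows of other H2B genes.

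H2bc6 followed the same order at a lower level, with 2.25, 2.01 and 2.47 FPKM in SCC2, 0.935, 0.761 and 0.882 in SCC1, and 1.17, 1.44 and 1.18 in LLC1. The lines did not overlap, and the log2 changes were -0.28, 0.52 and 0.80 in SCC1 against LLC1, SCC2 against LLC1 and SCC2 against SCC1 (limma adjusted p = 0.00317, 3.61e-05 and 5.35e-07). Its value in SCC2 against LLC1 was 0.17 (adjusted p = 0.0578) with chromosome medians taken off. H2bc6 passed the filter with no SCC1 library at 1 FPKM, so its direction in SCC1 is not independent of the filter. H2bc9 had 1.38, 2.46 and 2.802 FPKM in SCC2, 0.789, 1.24 and 0.734 in SCC1, and 1.13, 1.16 and 0.784 in LLC1. Each SCC2 library lay above the others, with a log2 change of 0.64 against LLC1 (adjusted p = 0.00325, and 0.133 with chromosome medians taken off).

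H2bc21, which lies on chromosome 3, was lower in both clones. It had 5.39, 6.11 and 5.55 FPKM in SCC2, 5.58, 5.90 and 5.54 in SCC1, and 7.56, 7.55 and 7.65 in LLC1. No clone library reached LLC1, and the clones overlapped. The log2 change was -0.36 in SCC1 against LLC1 (limma adjusted p = 1.62e-05) and -0.36 in SCC2 against LLC1 (adjusted p = 1.8e-05), while the medians of chromosome 3 were 0.0058 and 0.0501.

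H2bc8 had the largest rise of a tested core gene in both clones on the log2(FPKM + 1) scale. By the ratio of mean FPKM, H2ac13 rose more in SCC1 (2.32), and H2bc9 (2.16) and H3c4 (2.06) rose more in SCC2. It had 7.74, 8.77 and 7.12 FPKM in SCC2, 8.21, 8.60 and 9.55 in SCC1, and 4.15, 4.39 and 3.91 in LLC1. Every clone library was above every LLC1 library, at 61 to 81 fragments against 31 to 37. The log2 change was 0.93 in SCC1 against LLC1 (SE 0.069, limma adjusted p = 2.72e-07, ratio 2.12) and 0.78 in SCC2 against LLC1 (adjusted p = 1.31e-06, ratio 1.9). The clones overlapped (-0.14 in SCC2 against SCC1, adjusted p = 0.08, 0.0112 to 0.0452 without SCC2 replicate 2 or SCC1 replicate 1, and -0.39 with adjusted p = 0.000342 with chromosome medians taken off). Identical windows in other H2B genes covered 39% of its GENCODE transcript of 618 bases, so part of its fragments could belong to them. The gene counted had 464 bases, and the share within it was not computed.

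H2bc8 is paired head to head with the H2A gene H2ac8, with 179 bases between the genes. H2ac8 had 3.17, 3.17 and 4.18 FPKM in SCC2, 4.34, 5.89 and 5.10 in SCC1, and 2.40, 3.06 and 5.45 in LLC1. All SCC2 libraries lay below all SCC1 libraries, and LLC1 overlapped both. No change was called (0.45 in SCC1 against LLC1, limma adjusted p = 0.0544, and 0.00604 in SCC2 against LLC1). LLC1 replicate 3 was the highest of its line, and without it the value in SCC1 against LLC1 was 0.71 (adjusted p = 0.000433). In SCC2 against SCC1 it was -0.44 (adjusted p = 0.0529), and it was called without LLC1 replicate 1 or 3 or SCC2 replicate 3 (adjusted p = 0.00365 to 0.0382) and with chromosome medians taken off (-0.69, adjusted p = 0.00684). H2ac8 was called in SCC1 against LLC1 with quantile normalization, a filter at 5 FPKM or a replicate block as well. The changes of H2bc8 and H2ac8 were not compared with each other, so a call for 1 gene alone is not a difference between them. The region between the pair is shown because their promoter windows overlap. It is the RefSeq promoter window of H2bc8, GRCm38.p6 chr13:23571150-23571449 (+), 250 bases before to 50 after its start, with 279 bases in the window of H2ac8 as well, and letters of the motifs searched in capitals.
H2bc8: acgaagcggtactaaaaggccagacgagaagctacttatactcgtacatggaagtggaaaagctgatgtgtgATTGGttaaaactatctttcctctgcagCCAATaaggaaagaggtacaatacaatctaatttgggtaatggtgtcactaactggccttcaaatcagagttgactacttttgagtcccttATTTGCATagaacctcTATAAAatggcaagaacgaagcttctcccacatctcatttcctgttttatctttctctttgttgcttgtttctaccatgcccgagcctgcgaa
Motifs were searched on both strands by their exact letters: the CCAAT box as named, the TATA box as TATAAA, and the octamer known from H2B promoters as ATTTGCAT. None of the matches shown overlapped another. The TATA box lay 43 bases before the start of H2bc8, the octamer 59 bases, and CCAAT boxes 150 bases and, on the other strand, 178 bases. A CCAAT box was in 37.9% of 27025 promoter windows and in 42 of the 51 core members that had a window. The TATA box was in 14.2% of all windows and in 28 of the core members, and the octamer in 1.75% of all windows and in 10 of the core members.

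Among the H4 genes, H4c9 was highest, with 11.8, 13.8 and 13.4 FPKM in SCC2, 13.9, 13.4 and 13.9 in SCC1, and 11.7, 8.87 and 10.9 in LLC1. Both clones lay above LLC1, by a log2 change of 0.37 in SCC1 (limma adjusted p = 0.00157) and 0.29 in SCC2 (adjusted p = 0.0066). The value in SCC2 was -0.06 and not called with chromosome medians taken off. H4c12 had 6.35, 7.33 and 5.17 FPKM in SCC2, 2.015, 2.504 and 2.541 in SCC1, and 6.28, 3.77 and 3.72 in LLC1. SCC1 lay below both other lines, by -0.71 from LLC1 (adjusted p = 0.00158), while SCC2 overlapped LLC1 (0.40, adjusted p = 0.0373). That last call was lost without LLC1 replicate 2 or 3, SCC2 replicate 1 or 2, or SCC1 replicate 1 or 2 (adjusted p = 0.0501 to 0.139), and with a replicate block. With chromosome medians taken off, the value was 0.0487 (adjusted p = 0.802). Windows identical to other H4 genes made up 53.4% of the H4c12 model and 2.1% of that of H4c9.

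H4c11 had 1.44, 1.65 and 1.92 FPKM in SCC2, 1.83, 2.42 and 4.14 in SCC1, and 1.77, 1.69 and 1.80 in LLC1. Its rise in SCC1 (0.42, limma adjusted p = 0.0381) rested on few fragments, 15 to 32 in SCC1 libraries. The call was lost without any 1 LLC1 replicate or SCC1 replicate 3 (adjusted p = 0.0683 to 0.111), and with chromosome medians taken off (adjusted p = 0.115). In SCC2 against SCC1 it was -0.47 (adjusted p = 0.0211), and 0.0715 without SCC2 replicate 1.

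H3c3 was higher in SCC1 and lower in SCC2 than in LLC1. It had 0.461, 0.781 and 0.903 FPKM in SCC2, 1.93, 2.13 and 2.17 in SCC1, and 1.56, 1.26 and 0.974 in LLC1. The lines did not overlap, at 4 to 8 fragments in SCC2, 18 to 19 in SCC1 and 8 to 14 in LLC1. With no SCC2 library at 1 FPKM, the direction of H3c3 in SCC2 is not independent of the filter. The log2 changes were 0.45 in SCC1 against LLC1 (limma adjusted p = 0.00244), -0.40 in SCC2 against LLC1 (adjusted p = 0.00506) and -0.85 in SCC2 against SCC1 (adjusted p = 1.36e-05). H3c10, which was not tested, averaged 0.26 FPKM in SCC2, 0.727 in SCC1 and 0.612 in LLC1, with every SCC2 library below the other lines.

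H3c4 had 2.19, 2.55 and 2.69 FPKM in SCC2, 2.044, 1.497 and 1.52 in SCC1, and 1.27, 1.53 and 0.812 in LLC1. SCC2 lay above both other lines, by 0.67 from LLC1 (limma adjusted p = 0.000286), and SCC1 overlapped LLC1 (0.29, adjusted p = 0.0388). The call in SCC1 was lost without LLC1 replicate 1 or 3 or SCC1 replicate 1 (adjusted p = 0.052 to 0.169), and with chromosome medians taken off (adjusted p = 0.172). H3c8 had 3.71, 2.40 and 3.74 FPKM in SCC2, 1.68, 1.75 and 2.56 in SCC1, and 2.501, 1.453 and 2.019 in LLC1. SCC2 overlapped the other lines, at 0.52 from LLC1 (adjusted p = 0.0117), a call lost without LLC1 replicate 2 or SCC2 replicate 3 (adjusted p = 0.0505 to 0.0538) or with chromosome medians taken off (0.392).

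Of the H2A genes, H2ac13 had 1.604, 1.196 and 0.8465 FPKM in SCC2, 1.49, 2.41 and 1.83 in SCC1, and 0.955, 0.859 and 0.652 in LLC1. SCC1 lay above LLC1 (log2 change 0.67, limma adjusted p = 0.000692), and SCC2 overlapped both. H2ac13 and H2ac7 passed the filter through the clones alone, so their direction against LLC1 is not independent of the filter. In SCC2 against SCC1 it was -0.40 (adjusted p = 0.0154), lost without SCC1 replicate 2 or SCC2 replicate 3 (adjusted p = 0.073 to 0.0736). In SCC2 against LLC1 it was not called (0.27, adjusted p = 0.084), except without SCC2 replicate 3 (adjusted p = 0.0185) or with quantile normalization (adjusted p = 0.013). With 86.1% of its windows identical to other H2A genes, this value cannot be assigned to H2ac13 alone. H2ac7 was higher than in LLC1 in SCC2 (0.28, adjusted p = 0.0376) and in SCC1 (0.37, adjusted p = 0.0102). The call in SCC2 was lost without LLC1 replicate 1 or 2 or SCC2 replicate 1 or 3 (adjusted p = 0.0704 to 0.141). With chromosome medians taken off neither was called, at -0.0705 in SCC2 and 0.27 in SCC1 (adjusted p = 0.601 and 0.0538). H3c6 was higher in SCC1 than in LLC1 (0.37, adjusted p = 0.0374), lost without LLC1 replicate 2 or 3 (adjusted p = 0.121 to 0.129) or with chromosome medians taken off (adjusted p = 0.13). Its value in SCC2 against SCC1, -0.26, was called without SCC1 replicate 3 (adjusted p = 0.00695) or with chromosome medians taken off (-0.52, adjusted p = 0.00708). H3c11 and H3c14 were called in no comparison. Without SCC2 replicate 3, H3c14 was called in SCC2 against LLC1 (adjusted p = 0.048), and without that library, LLC1 replicate 2 or SCC1 replicate 3 in SCC2 against SCC1 (adjusted p = 0.0326 to 0.0381). All windows of H3c14 were shared with H3c13, H3c15 or a predicted gene. H3c6 passed the filter with no SCC2 library at 1 FPKM, and H3c14 with no SCC1 library. Their directions in those lines are thus not independent of the filter.

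Over all core genes with a GENCODE transcript, 49 of 56 shared at least 1 window of 150 bases with another gene, and 20 shared at least 50% of their windows. The treatment of fragments with several matches is not given in the sources, so values of single core genes are uncertain. Shares are of the longest GENCODE transcript, which can be longer or shorter than the gene counted (H2bc8 618 against 464 bases, H4c12 312 against 409). The share among the bases counted may therefore differ. The tested linker genes shared none. Of the 5 tested variant genes with a GENCODE transcript 3 shared windows, H2az1 25.9% with the predicted gene Gm8203, H3f3a 4.4% and H3f3b 0.1%.

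**Figure D5:**
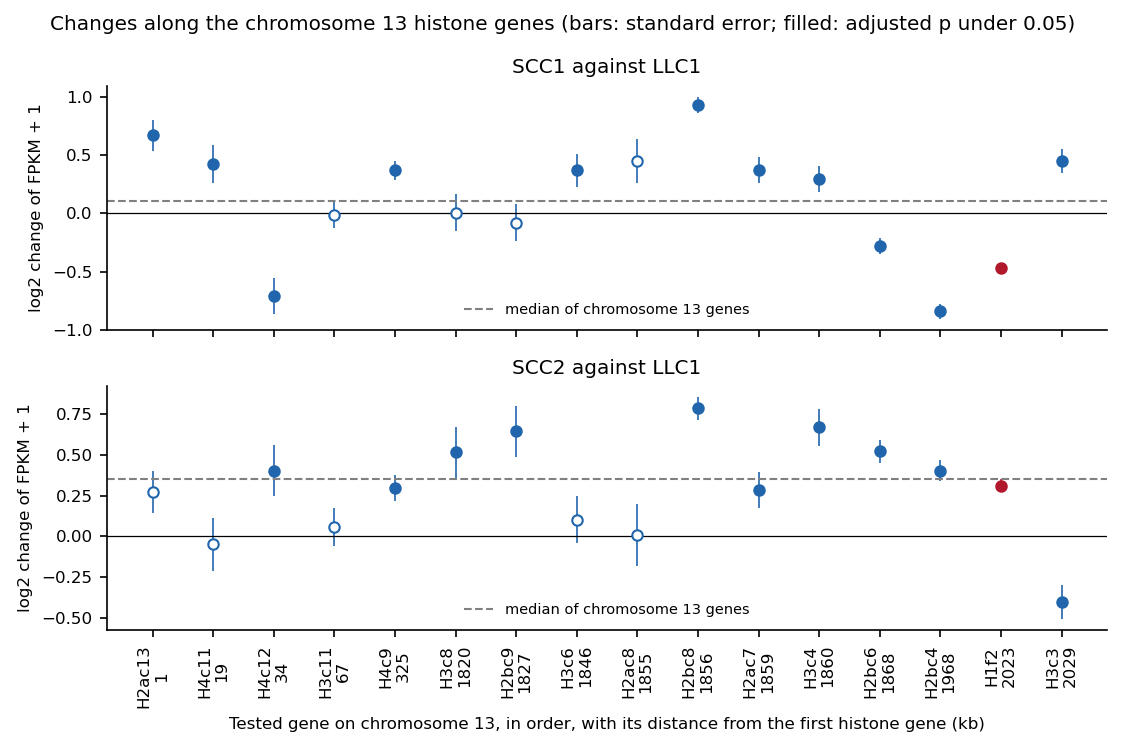
Log2 change of FPKM + 1 with its standard error for the 16 tested histone genes on chromosome 13, in their order on the chromosome with the distance from the first histone gene in kb, in SCC1 against LLC1 and SCC2 against LLC1. Colours mark core and linker genes, filled points had an adjusted p under 0.05, and the dashed line is the median of the 405 tested chromosome 13 genes; neighbouring genes lie on both sides of it.

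Chromosome 13 held 51 members over 2048 kb, with 1 gap of 1488 kb, and 16 of them were tested. The 405 tested genes of this chromosome had a median log2 change of 0.10 in SCC1 against LLC1, 0.35 in SCC2 against LLC1 and 0.26 in SCC2 against SCC1. The 15 core members among them had medians of 0.37 in SCC1 against LLC1, 0.29 in SCC2 against LLC1 and -0.0727 in SCC2 against SCC1. In SCC1 against LLC1, 8 of the 15 were higher and 3 lower (73.3% called, against 70.1% of all genes), and in SCC2 against LLC1, 9 higher and 1 lower (66.7%, against 67.6%). In SCC2 against SCC1, 6 were higher and 3 lower (60%, against 76.3%). Genes close to each other differed: H2bc8, at 1855.7 kb from the first histone gene, was higher in SCC1, and H2bc6, at 1868 kb, was lower. Over all 26 tested members, on any chromosome, those called higher in SCC2 against LLC1 fell from 13 to 6 with chromosome medians taken off. On chromosome 13, H2bc8 and H3c4 alone were then still called higher in SCC2. In SCC1 against LLC1 the members called higher fell from 10 to 4, which were H2ac13, H2bc8, H3c3 and H4c9, all on chromosome 13.

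The levels of core genes were also set beside the ends of their transcript models, and the groups overlapped. Among core members, the 18 whose GENCODE model runs over 100 bases past the stem-loop had a median of 0.9 FPKM (0.242 to 12.4), and 9 passed the filter. H2bc22 is counted with these for a model without the site, while its model with the site ends 38 bases past it. The 22 whose model ends within 100 bases of it had a median of 0.299 (0.0529 to 2.42), and 3 passed. The 16 with no stem-loop in the model, which may simply stop before it, had a median of 0.356 (0.127 to 24.8, the highest being H2bc4), and 5 passed. These are descriptions across genes, which share sequence and are not replicates.

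Factors that make and end histone mRNAs were read from a list of 28 genes, 27 of them tested. In SCC1 against LLC1, 12 were higher and 7 lower (median 0.0492). In SCC2 against LLC1, 9 were higher and 3 lower (median 0.0874), and in SCC2 against SCC1, 10 higher and 9 lower (median 0.00694). The medians over all tested genes were 0.0333, 0.00754 and -0.00285 in these comparisons. The shares called were 70.4%, 44.4% and 70.4%, against 70.1%, 67.6% and 76.3% of all tested genes. Slbp, the stem-loop binding protein, averaged 34.4 ± 0.948 FPKM in SCC2, 34.5 ± 0.719 in SCC1 and 32.2 ± 0.488 in LLC1, with log2 changes of 0.0939 in SCC2 and 0.0962 in SCC1 against LLC1 (limma adjusted p = 0.00844 and 0.00709). Npat, the coactivator that gathers at histone gene clusters, was lower in both, by -0.23 in SCC2 and -0.16 in SCC1. The medians of its chromosome 9 were close to these values, at -0.16 in SCC2 and -0.186 in SCC1. Cdk2, the kinase that activates NPAT with cyclin E, averaged 26.6 ± 0.384 FPKM in SCC2, 18.8 ± 0.788 in SCC1 and 22.4 ± 0.434 in LLC1, and the cyclin E gene Ccne2 13 ± 0.402, 8.06 ± 0.468 and 7.11 ± 0.115 (SD, n = 3 each). Both were higher in SCC2 than in SCC1, by 0.48 and 0.63 (adjusted p = 5.32e-08 and 4.43e-08). In that comparison the median was 0.279 on chromosome 10, which holds Cdk2, and 0.294 on chromosome 4, which holds Ccne2. The other cyclin E gene, Ccne1, went the other way, at 11.7 ± 0.591 FPKM in SCC2, 15.5 ± 0.511 in SCC1 and 10.99 ± 0.763 in LLC1. It was lower in SCC2 than in SCC1 (-0.37, adjusted p = 2.31e-05) and higher in SCC1 than in LLC1 (0.46, adjusted p = 5.52e-06). Cstf2, a subunit of the cleavage stimulation factor that acts on histone and other mRNAs, was higher in SCC2 (0.32) and in SCC1 (0.48) than in LLC1. The medians of its chromosome X were 0.232 and 0.165. Snrpb, an Sm protein, was higher in SCC1 than in LLC1 (0.36, adjusted p = 2.17e-08) and not called in SCC2 (0.0462).

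Histone chaperones and exchange factors numbered 38, all tested. In SCC1 against LLC1, 19 were higher and 12 lower (median 0.0673), in SCC2 against LLC1, 25 higher and 3 lower (median 0.12), and in SCC2 against SCC1, 18 higher and 9 lower (median 0.0498). The shares called were 81.6%, 73.7% and 71.1%, against 70.1%, 67.6% and 76.3% of all tested genes. Nap1l1, a carrier of H2A and H2B, averaged 156 ± 1.5 FPKM in SCC2, 94.1 ± 1.83 in SCC1 and 130 ± 3.13 in LLC1, with log2 changes of 0.26 in SCC2 and -0.46 in SCC1 against LLC1 (limma adjusted p = 9.35e-07 and 5.13e-09). The medians of its chromosome 10 were 0.0957 in SCC2 and -0.195 in SCC1. Chaf1a, the large subunit of the assembly factor CAF-1, averaged 39.7 ± 0.526, 52.7 ± 0.801 and 42.7 ± 0.536 FPKM in SCC2, SCC1 and LLC1. It was higher in SCC1 (0.30, adjusted p = 2.19e-07) and lower in SCC2 (-0.10, adjusted p = 0.00125). Rbbp4 was lower than in LLC1 in SCC2 (-0.10) and SCC1 (-0.35), and its paralogue Rbbp7 higher in SCC2 (0.21) and SCC1 (0.41). Chromosome 4, which holds Rbbp4, had medians of -0.0399 in SCC2 and -0.332 in SCC1. Chromosome X, which holds Rbbp7, had 0.232 and 0.165, so the values of Rbbp4 in SCC1 and Rbbp7 in SCC2 were close to those medians.

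Genes of S phase and replication were counted because core histone genes are transcribed with them. Of 31 tested, 22 were higher and 2 lower in SCC1 against LLC1 (median 0.20), 17 higher and 4 lower in SCC2 against LLC1 (median 0.14), and 13 higher and 15 lower in SCC2 against SCC1 (median -0.0121). The shares called were 77.4%, 67.7% and 90.3%, against 70.1%, 67.6% and 76.3% of all tested genes. Pcna, the replication clamp, averaged 219 ± 3.72 FPKM in SCC2, 232 ± 3.43 in SCC1 and 201 ± 1.78 in LLC1. Tk1, thymidine kinase, was higher in SCC2 than in LLC1 (0.36, limma adjusted p = 9.36e-08) and not called in SCC1 against LLC1 (-0.0282). The helicase subunits Mcm7 and Mcm2 were higher in SCC1 than in LLC1 (0.26 and 0.31) and lower in SCC2 (-0.0807 and -0.11), and Rrm2, of ribonucleotide reductase, was higher in SCC2 (0.32) and SCC1 (0.26). Mki67, a marker of cycling cells, averaged 76.5 ± 2.22 FPKM in SCC2, 68.1 ± 0.717 in SCC1 and 67.5 ± 1.8 in LLC1, higher in SCC2 than in LLC1 by 0.18 (adjusted p = 7.38e-05) and not called in SCC1 (0.0128). Their part in the core histone values was not tested. A list of 24 RNAs without a poly(A) tail had no match among the symbols of the table, so the yield of such RNA was not checked.

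Other genes of the histone fold lay outside the naming rule. Macroh2a2, which encodes a macroH2A variant found in silent chromatin, averaged 12.4 ± 0.972 FPKM in SCC2, 5.80 ± 0.71 in SCC1 and 11.4 ± 0.706 in LLC1, with a log2 change of -0.87 in SCC1 against LLC1 (limma adjusted p = 9.41e-07) and none called in SCC2 (0.11). Macroh2a1 was higher than in LLC1 in SCC2 (0.44) and in SCC1 (0.19). H2aj averaged 25.0 ± 1.43, 37.9 ± 0.691 and 26.4 ± 0.6 FPKM in SCC2, SCC1 and LLC1, and was called in SCC1 against LLC1 (0.51, adjusted p = 2.15e-07). Cenpa, the H3 variant of the centromere, was lower in both clones, by -0.0704 in SCC2 and -0.14 in SCC1. The fifth, H2bu2, was lower as well, by -0.47 in SCC2 and -0.84 in SCC1.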

How the data were processed

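RNA was sequenced in 9 libraries, 3 for each of SCC2, SCC1 and LLC1. The authors deposited FPKM per gene symbol, computed with cufflinks after Trimmomatic and hisat2, per the series' design text; the submitters' processing notes name GRCm38 and mm10, and no source names the annotation. The label protocols and the design text name different extraction and library kits, and neither states whether counting used the strand. Groups came from the sample titles. Whole fragments were worked back from the FPKM steps: all 15768 genes came out whole within 0.001 fragments, up to a factor common to a gene. A difference in total RNA per cell leaves no trace in FPKM.

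The 10519 genes that reached 1 FPKM in 3 or more libraries were fitted on log2(FPKM + 1) by limma 3.58.1 under R 4.3.3, with trended, robust eBayes and the line as factor over all 9 libraries. P-values were two-sided and adjusted over every fitted gene by the Benjamini-Hochberg method (threshold 0.05). Lists are described by counts and medians. The alternatives, 18 in number, are in the closing section, and the fit was tested on simulated data. Python 3.11.15, numpy 2.4.6, pandas 2.3.3 and matplotlib 3.10.9 were used for sums, sequences and figures. The members and the 11 gene lists were chosen with earlier results of these data known. Values per library are given for linker and variant genes that passed the filter, for the 8 core genes with the highest mean, and for up to 4 core genes with the largest called changes in each direction without overlap; other lists give up to 4 genes with the smallest adjusted p, beside Slbp, Npat, Pcna and Mki67. By symbol, 71 of 72 members matched RefSeq (not H2bc24), and 69 a GENCODE M21 transcript. Replicate numbers did not pair the libraries. Fragment numbers speak of counting error alone, because PCR copies are not separate molecules.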

Additional observations from a re-analysis of the deposited data

Results flagged for a closer look

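The change against LLC1 differed between the subclones, by the test of SCC2 against SCC1 in the same fit (limma adjusted p under 0.05), for 17 of the 26 tested histone genes, where 76.3% of all tested genes were called. The values are log2 changes of SCC2 minus SCC1. Among linker genes they were 3.21 for H1f10, 0.78 for H1f2 and -0.42 for H1f0. Among variants they were 0.77 for H2ax, 0.21 for H2az1, -0.49 for H2az2, 0.19 for H3f3a and -0.0838 for H3f3b. Of the H2B genes, H2bc4 had 1.24, H2bc6 0.80 and H2bc9 0.72. Among the other core genes H4c12 had 1.11, H4c11 -0.47, H3c3 -0.85, H3c4 0.38, H3c8 0.51 and H2ac13 -0.40.

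H1f10, H1f2, H2bc4, H2bc6, H3f3a and H4c12 were called higher in SCC2 and lower in SCC1, each against LLC1, and H3c3 and H2az2 lower in SCC2 and higher in SCC1. The LLC1 libraries are common to both comparisons. How many of all tested genes were called in opposite directions was not counted, so this pattern is not read as particular to histone genes. Chromosome medians moved between the clones as well, by 0.26 on chromosome 13 and -0.44 on chromosome 15. With those medians taken off, 13 of the 17 differences between the clones kept their direction and call, a share that was not counted over all genes. H1f0 was then at 0.00617 and H3f3b at 0.12, and H3c4 and H3c8 were not called (adjusted p = 0.362 and 0.162). Of the 8 genes called in opposite directions against LLC1, H1f10 and H3c3 alone were still so. The rise in SCC2 was then -0.0433 for H1f2, 0.0489 for H2bc4, 0.17 for H2bc6, -0.0522 for H3f3a and 0.0487 for H4c12, and the rise of H2az2 in SCC1 was -0.0653. H1f10 had passed the filter with no SCC1 library at 1 FPKM, and H3c3 with no SCC2 library. Their direction in that line is thus not independent of the filter.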

How the results depend on the processing

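Of 53 called changes of histone genes, 32 kept their direction and call in every alternative that tested the gene: 24 in all 18, and 8 in 17, with the gene left out by the filter at 5 FPKM. Members called higher in SCC1 against LLC1 (10) numbered 5 with a filter at 5 FPKM, 6 without the trend option and 4 with chromosome medians removed. In SCC2 against LLC1 (13 higher) they numbered 8 at 5 FPKM and 6 with chromosome medians removed, and in SCC2 against SCC1 7 were higher at 5 FPKM, against 11, and 10 lower with no filter, against 6. The filter at 5 FPKM left 14 members to test, while the fit with no filter tested all 72, so these counts are over different numbers of members. Without the most abundant member, the ratios of summed FPKM were 0.617, 1.37 and 2.23 for linker genes (SCC1 over LLC1, SCC2 over LLC1, SCC2 over SCC1), and 1.22 and 0.98 for core genes (SCC1 over LLC1, SCC2 over SCC1). With chromosome medians removed 17 signs changed, 7 of them of values called in neither fit. The other 10 were H2az2 -0.0653 and H3f3b -0.0686 in SCC1 against LLC1; H1f2 -0.0433, H2ac7 -0.0705, H2ax 0.15, H3c11 -0.30, H3f3a -0.0522 and H4c9 -0.06 in SCC2 against LLC1; and H1f0 0.00617 and H3f3b 0.12 in SCC2 against SCC1. The alternative by its construction shifts every gene of a chromosome by 1 amount. Leaving out 1 library gave 7 to 10 higher and 9 lower members in SCC1 against LLC1, 10 to 13 higher and 4 lower in SCC2 against LLC1, and 11 to 12 higher and 5 to 7 lower in SCC2 against SCC1. Libraries of the same replicate number did not deviate together (r between -0.0683 and 0.089); with a replicate block the members called were 11 higher and 9 lower, 12 and 4, and 11 and 7 in these comparisons. The 40 core genes that were not tested had a median of 23.5 fragments over all libraries, which limits the precision of their values.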
